A study of Mus musculus with 16 samples.

Results

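Conjugation enzymes attach a water-soluble group to drugs, dietary compounds, hormones and lipid oxidation products, so that these can leave the cell. Of 62 gene names that match the soluble glutathione S-transferases (Gst), the UDP-glucuronosyltransferases of families 1 and 2 (Ugt) and the cytosolic sulfotransferases (Sult), 34 met the level asked for here. Members were chosen by their deposited read count, which had to be 10 or more in at least 4 of the 16 libraries. They were 19 Gst, 9 Ugt and 6 Sult genes among 15267 genes tested. The count was 10 or more in all 16 libraries for 32 members, in 11 libraries for Ugt2a3 and in 6 for Ugt1a6b. Just outside the threshold lay Ugt1a2, with 10 or more counts in 3 libraries, and Sult5a1 and Sult6b1, with 2 each.

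The RNA came from the ileal whole wall of male STAM mice, which become diabetic after streptozotocin on day 2 of life and were fed a high-fat diet once 4 weeks old. All mice carried floxed insulin receptor alleles. Control-STAM-nonINS mice (n = 4) lacked Villin-Cre and had no insulin treatment (the methods give saline for control mice). Control-STAM-INS mice (n = 6) had the same genotype and received insulin by subcutaneous injection 2 times a day from 6 weeks of age, raised to at most 12 U/kg. The ieIRKO-STAM-INS mice (n = 6) carried Villin-Cre, a transgene expressed in the intestinal epithelium, and received the same treatment. The methods give 20 weeks as the age of study. A whole-wall sample also holds muscle, stroma and immune cells, which the Villin promoter does not target.

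The glutathione S-transferases join reactive electrophiles to glutathione. The UDP-glucuronosyltransferases sit in the endoplasmic reticulum membrane and add glucuronic acid to bilirubin, steroids, phenols and drugs. The sulfotransferases move sulfate from the donor PAPS to phenols, steroids and amines. In the gut these enzymes act mainly in absorptive enterocytes and form a first barrier against ingested compounds. Several of their genes are textbook targets of NRF2, AHR, PXR and CAR, the factors that sense electrophiles and foreign compounds.

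Most members sit in gene clusters of GRCm38 (GENCODE annotation). The 7 Gstm genes lie within 149.1 kb on chromosome 3 (107895821 to 108044894), and 2 of the 3 Gsta genes, Gsta1 and Gsta4, within 59.9 kb on chromosome 9. The 3 Gstp genes lie within 24.2 kb on chromosome 19 and the 3 Gstt genes within 63.3 kb on chromosome 10. The 4 Ugt1a members share 124.9 kb on chromosome 1, where separate first exons are spliced to common later exons. The 4 Ugt2b members lie within 250.6 kb on chromosome 5, and Sult1b1 and Sult1d1 within 55.7 kb on the same chromosome.

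Promoter sequence was available for 30 of the 34 members (RefSeq, GRCm38.p6), not for Gsta4, Gstt2, Sult4a1 and Ugt1a6b. The 250 bases before the start are shown for Gsta3, which had the lowest adjusted p in the comparison that combined insulin and genotype, for Gstm1, the most abundant Gstm gene per length, and for the 3 Ugt1a genes that fell with insulin, because each of those is transcribed from a promoter of its own. Capitals mark the core of the antioxidant response element, TGACNNNGC, the sequence bound by NRF2. The windows are chr1:21240335-21240584 (plus strand) for Gsta3, chr3:108017974-108018223 (minus strand) for Gstm1, and chr1:88211709-88211958, chr1:88134559-88134808 and chr1:88094751-88095000 (all plus strand) for Ugt1a1, Ugt1a6a and Ugt1a7c.
Gsta3: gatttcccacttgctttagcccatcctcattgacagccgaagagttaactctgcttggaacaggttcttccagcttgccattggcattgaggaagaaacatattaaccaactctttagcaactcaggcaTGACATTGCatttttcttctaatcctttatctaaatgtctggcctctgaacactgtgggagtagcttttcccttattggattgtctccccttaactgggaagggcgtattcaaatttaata
Gstm1: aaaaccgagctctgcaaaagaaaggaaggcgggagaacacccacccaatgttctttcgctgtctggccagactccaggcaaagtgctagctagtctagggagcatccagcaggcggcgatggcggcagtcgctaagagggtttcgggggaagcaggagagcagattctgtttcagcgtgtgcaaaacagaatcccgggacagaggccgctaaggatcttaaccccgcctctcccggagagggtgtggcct
Ugt1a1: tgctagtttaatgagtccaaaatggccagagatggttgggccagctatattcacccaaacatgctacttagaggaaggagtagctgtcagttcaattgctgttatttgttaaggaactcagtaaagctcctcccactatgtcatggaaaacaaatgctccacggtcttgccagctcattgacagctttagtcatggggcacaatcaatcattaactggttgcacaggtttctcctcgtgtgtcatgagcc
Ugt1a6a: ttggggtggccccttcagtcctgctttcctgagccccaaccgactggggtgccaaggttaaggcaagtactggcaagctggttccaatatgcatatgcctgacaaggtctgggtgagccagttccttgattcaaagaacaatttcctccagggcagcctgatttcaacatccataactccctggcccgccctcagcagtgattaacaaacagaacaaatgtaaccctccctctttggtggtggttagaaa
Ugt1a7c: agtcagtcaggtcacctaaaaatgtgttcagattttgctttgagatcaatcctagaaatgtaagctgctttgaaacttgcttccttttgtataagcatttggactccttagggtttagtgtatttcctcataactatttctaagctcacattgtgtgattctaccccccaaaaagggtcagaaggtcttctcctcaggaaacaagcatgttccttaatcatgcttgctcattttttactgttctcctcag

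The 250 bases before every annotated start of a gene were searched on both strands, and a gene counted when any of its windows held a match. The core TGACNNNGC was present in 3 of 30 members (Gsta3, Gstm5 and Gstm7) and in 11.5% of 27025 genes. In Gsta3 the match began 121 bases before the start. The core of the dioxin response element, GCGTG, to which AHR binds, was present in 7 of 30 members (23.3%) and in 30.9% of all genes. The full consensus of the PPAR direct repeat and of the palindromic HNF1 site had 0 matches among members and were rare everywhere (0.0407% and 0.0111% of genes). Neither core was more frequent among the members than among all genes, and these counts describe letters in a short window only. Aligned over their length, the promoters of Gstp1 and Gstp2 were 78.5% identical. The 3 Ugt1a promoters were 49.5% to 52.3% identical to each other, within the 39.5% to 54.5% seen between members of different subfamilies.

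Each library held between 13288018 and 22215382 counted reads. Insr was measured first as a check of the labels. It had 112, 104, 88.3 and 116 CPM (counts scaled to library size after TMM normalization) in the 4 Control-STAM-nonINS mice, between 49.9 and 76.1 CPM in Control-STAM-INS and between 57.5 and 90.4 CPM where the label was ieIRKO-STAM-INS. Its estimate in the last group was not below that of Control-STAM-INS (log2 fold change 0.10, 95% confidence interval -0.15 to 0.35, adjusted p = 0.805 by edgeR). Directions given below for that group are therefore those of the libraries labelled ieIRKO-STAM-INS. The Insr count covers the whole gene and all cells of the wall, so it cannot decide whether the receptor was deleted in the epithelium. Fewer cells of a type and less RNA per cell cannot be told apart in these bulk samples.

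Compared per length, the members covered a wide range of levels. Averaged over the 16 libraries, Gsto1, an omega-class enzyme that also reduces dehydroascorbate, had the highest level with 148 CPM per kb of exonic length, followed by Gstp1 with 142, Sult1d1 with 98.7, Ugt2b34 with 91.7 and Sult1b1 with 74.4. The order of the first 2 was not the same in all groups. Gstp1 had 151 to 222 CPM per kb in Control-STAM-nonINS against 120 to 156 for Gsto1, with an overlap of the 2 ranges. In Control-STAM-INS, Gsto1 had 149 to 169 and Gstp1 114 to 153, again with an overlap. The lowest levels belonged to Ugt2a3 with 0.712 and Ugt1a6b with 0.248 CPM per kb. All members together reached 2616 ± 186 CPM in the 4 untreated mice (SD). They reached 2142 ± 95.4 CPM in the 6 Control-STAM-INS mice and 1925 ± 266 CPM in the 6 libraries labelled ieIRKO-STAM-INS (SD). The first 2 groups did not overlap in this sum, with 2399.9 to 2840 and 2008 to 2273 CPM.

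**Figure D1:**
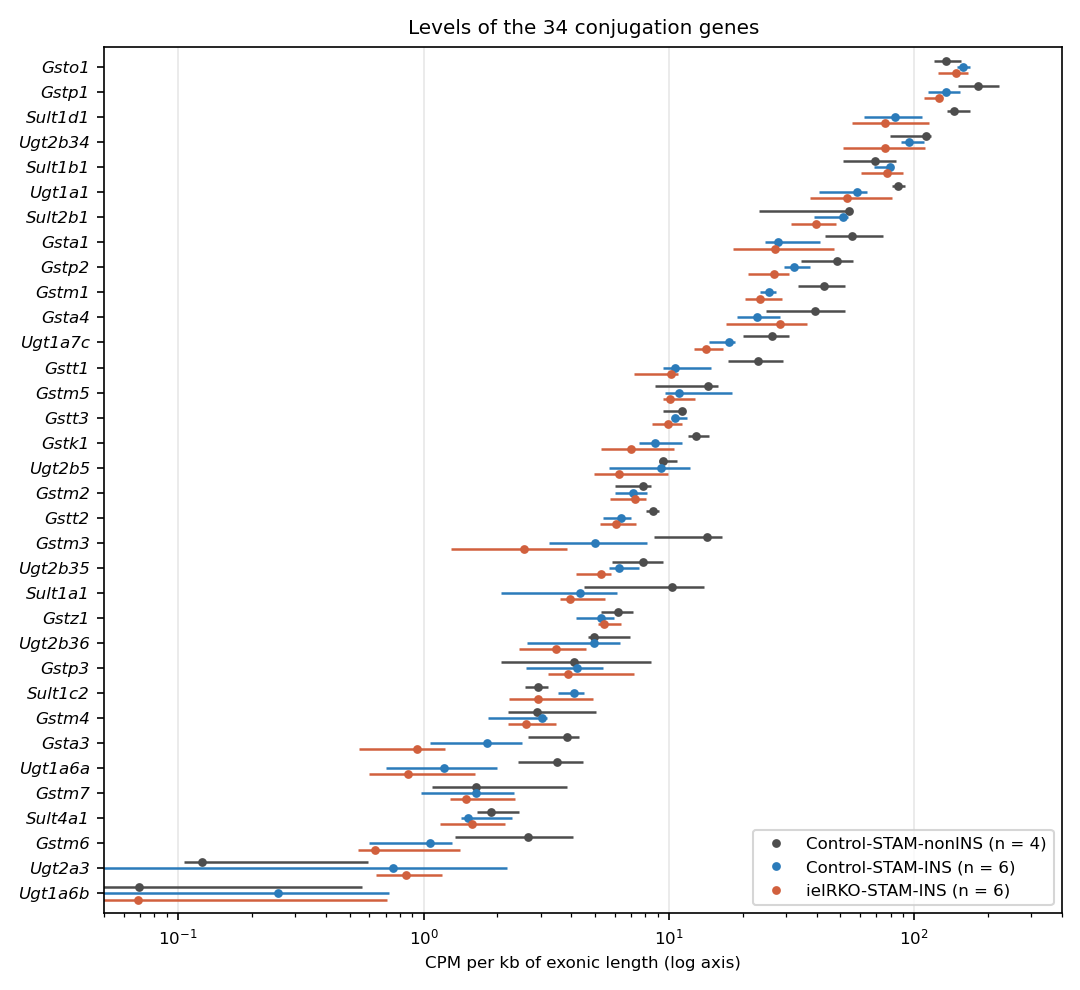
Level of each of the 34 genes in CPM per kb of exonic length on a log axis, with the median (point) and the lowest to highest mouse (line) of each group; values under 0.05, including zeros, lie off the left edge. Gsto1 and Gstp1 are at the top and Ugt1a6b, with an average of 0.248, at the bottom.

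Insulin treatment of the control genotype was compared first (Control-STAM-INS against Control-STAM-nonINS). Of the 34 members, 15 were lower with insulin and 0 were higher at an adjusted p under 0.05 (edgeR's quasi-likelihood test, Benjamini-Hochberg over all tested genes). Among all 15267 genes, 6.76% were lower and 3.73% higher by the same test. The 15 were 10 of 19 Gst, 3 of 9 Ugt and 2 of 6 Sult genes. The median log2 fold change of the members was -0.32, against -0.0043 over all genes, and 27 of 34 were negative. In 12 members every Control-STAM-INS mouse lay below every Control-STAM-nonINS mouse (6.23% of all genes), and in 1, Sult1c2, every such mouse lay above (4.4% of all genes).

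**Figure D2:**
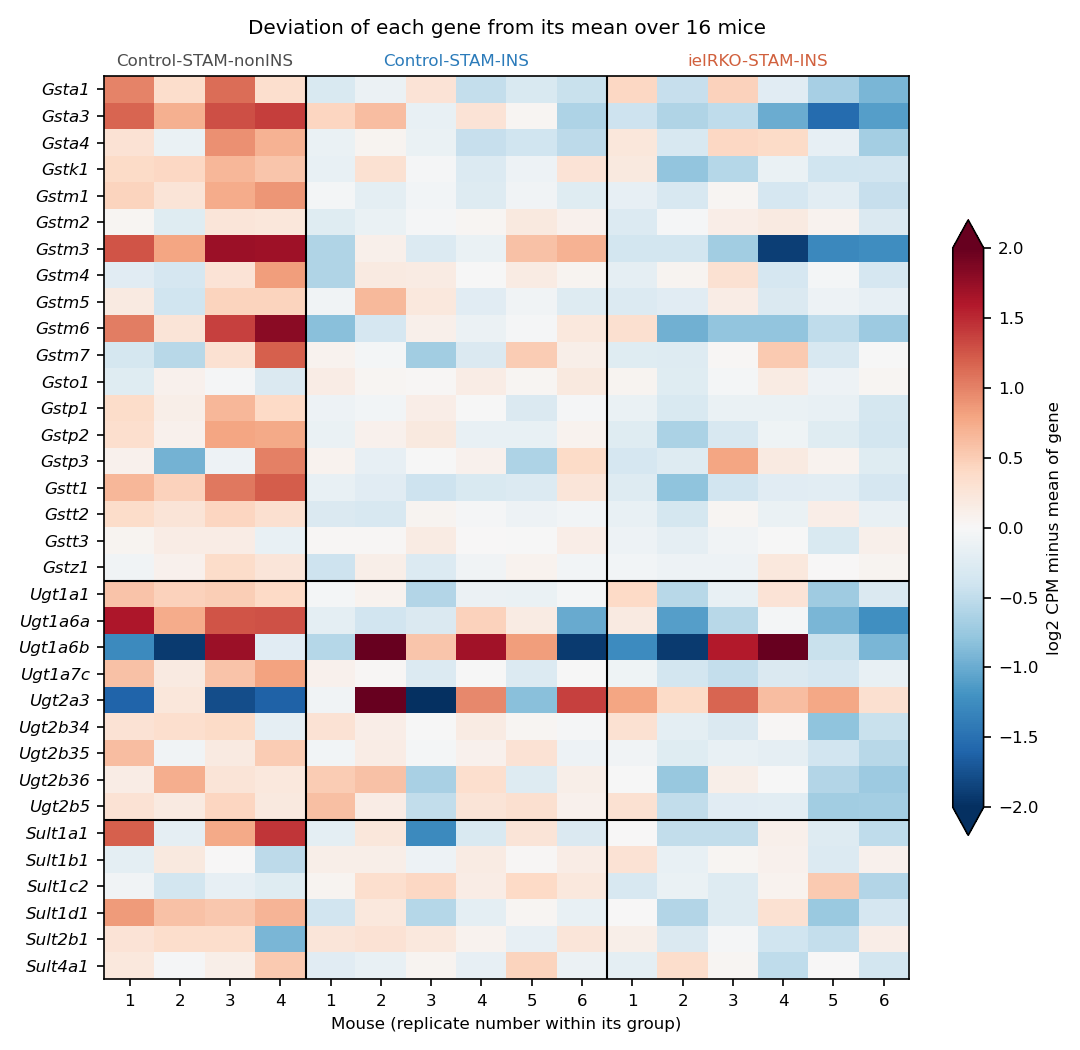
Deviation of each gene from its own mean over 16 mice (log2 CPM, colour), with genes in rows by enzyme class and mice in columns by group. The 4 Control-STAM-nonINS mice are above the mean for most Gsta, Gstm1, Gstm3, Gstm6, Gstt1 and Ugt1a6a values, and Ugt1a6b varies within every group.

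The alpha-class enzymes Gsta1, Gsta3 and Gsta4 all fell with insulin. Alpha-class enzymes conjugate electrophiles and reduce lipid hydroperoxides, and Gsta4 prefers 4-hydroxynonenal, a product of lipid peroxidation. Gsta3 had 16.01, 11.6, 17.4 and 18.7 CPM in the Control-STAM-nonINS mice. In Control-STAM-INS its lowest, median and highest values were 4.59, 7.91 and 11.0 CPM, so that the groups did not overlap. The log2 fold change was -1.02 ± 0.23 (SE; adjusted p = 0.00828 by edgeR). Gsta1 had 65.0, 41.7, 71.5 and 41.4 CPM without insulin and 23.5, 26.5 and 39.5 CPM (lowest, median, highest) with insulin, again without overlap (log2 fold change -0.95 ± 0.26, adjusted p = 0.0303 by edgeR). Gsta4 had 42.7, 31.6, 65.8 and 56.5 CPM without insulin and 24.1, 29.0 and 36.0 with it, and the groups overlapped through replicate 2 of Control-STAM-nonINS (log2 fold change -0.76 ± 0.22, adjusted p = 0.0366 by edgeR).

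The calls of Gsta1 and Gsta4 lay near the threshold. When 1 library was left out, the log2 fold change ranged from -1.07 to -0.79 for Gsta1 and from -0.91 to -0.58 for Gsta4. Gsta4 lost its call when any 1 of 8 of the 10 libraries was left out, all but replicate 2 of each group, with an adjusted p of up to 0.130 in edgeR without Control-STAM-nonINS replicate 3. Gsta1 lost it without Control-STAM-nonINS replicate 1 or 3 or Control-STAM-INS replicate 1, 4, 5 or 6, with an adjusted p of up to 0.0976. Gsta1 also shares 90.5% of its 50-base stretches with other annotated transcripts, chiefly Gm3776, which had 322 to 1452 counts per library where Gsta1 had 296 to 1279. How the authors placed reads that match several genes is not stated in the sources used here. Summed with Gm3776, Gsta2 and Gm10639, an alternative added after the data were seen, the level was 123 ± 36.6 CPM (SD, n = 4) without insulin and 64.6 ± 14.0 (SD, n = 6) with it (log2 fold change -0.92 ± 0.27, adjusted p = 0.0377 by edgeR).

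The mu-class genes, whose enzymes conjugate epoxides and quinones, were called in 3 of 7 cases. Gstm1, Gstm3 and Gstm6 fell with insulin, and Gstm2, Gstm4, Gstm5 and Gstm7 did not pass the test. Gstm1 had 56.5, 49.4, 69.5 and 76.6 CPM without insulin and 34.7, 37.8 and 40.3 CPM (lowest, median, highest) with it. All 6 treated mice lay below all 4 untreated mice, with a log2 fold change of -0.74 ± 0.11 (adjusted p = 0.000597 by edgeR). Gstm3 had 15.9, 11.4, 21.6 and 21.6 CPM against 4.26, 6.53 and 10.7 (log2 fold change -1.29 ± 0.29, adjusted p = 0.00942 by edgeR). Gstm6 had 4.62, 2.67, 5.93 and 8.05 CPM against 1.19, 2.11 and 2.59 (log2 fold change -1.41 ± 0.30, adjusted p = 0.0060 by edgeR). Neither Gstm3 nor Gstm6 overlapped between the groups.

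Between Gstm3 and Gstm1 on the chromosome lies Gstm2, with a log2 fold change of -0.09 (95% confidence interval -0.35 to 0.17). The intervals of Gstm4 (-0.66 to 0.22), Gstm5 (-0.49 to 0.21) and Gstm7 (-0.98 to 0.24) included 0 but did not exclude a decrease. Gstm1 and Gstm3 share 18.9% and 28.8% of their 50-base stretches with other genes, pseudogenes included. Gstm5 overlaps the antisense gene 4933431E20Rik over 13.9% of its exonic length, and reads of the 2 cannot be told apart if strand was not used in counting.

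Of the pi-class genes, Gstp1 and Gstp2 fell with insulin and Gstp3 did not pass the test. Gstp1, a widely expressed enzyme that conjugates small electrophiles, had 279, 234, 343 and 285 CPM without insulin and 176, 209 and 237 CPM (lowest, median, highest) with it (log2 fold change -0.46 ± 0.10, adjusted p = 0.00841 by edgeR). Replicate 2 of Control-STAM-nonINS, at 234 CPM, lay within the range of the treated mice. Gstp2 had 46.1, 38.6, 62.8 and 61.9 CPM against 32.7, 35.9 and 41.9 (log2 fold change -0.53 ± 0.13, adjusted p = 0.0149 by edgeR), and was no longer called without Control-STAM-nonINS replicate 3 (adjusted p = 0.0669) or replicate 4. The 2 genes share sequence (33.7% and 54.3% of their 50-base stretches), so the division of reads between them is uncertain. Added up, the 3 Gstp genes had 342 ± 56.3 CPM (SD, n = 4) against 248 ± 23.1 (SD, n = 6) and a log2 fold change of -0.46 ± 0.11 (adjusted p = 0.00923 by edgeR). Gstp3, the least abundant of them, had 1.88 to 7.65 CPM against 2.38 to 4.88.

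Among the theta-class genes, whose enzymes act on haloalkanes and other small substrates, Gstt1 and Gstt2 fell with insulin. Gstt1 had 30.5, 26.7, 40.1 and 44.7 CPM without insulin and 14.5, 16.2 and 22.8 CPM (lowest, median, highest) with it. The groups were separate, and the log2 fold change of -1.05 ± 0.15 had the lowest adjusted p of the 34 members (0.000393 by edgeR). Gstt2 had 36.2, 33.4, 37.9 and 35.03 CPM against 22.4, 26.5 and 29.2 (log2 fold change -0.46 ± 0.10, adjusted p = 0.0060 by edgeR), also without overlap. Gstt3, next to Gstt1 in the cluster, had 36.2 to 44.85 CPM against 39.9 to 45.3 and a log2 fold change of 0.0026, with a 95% confidence interval of -0.17 to 0.17.

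The remaining glutathione S-transferases did not pass the test with insulin. Gstk1, the mitochondrial and peroxisomal kappa-class gene, had 17.6, 18.0, 21.4 and 19.9 CPM against 11.1, 12.9 and 16.6, a log2 fold change of -0.49 ± 0.16 and an adjusted p of 0.0563 in edgeR, although the groups did not overlap. DESeq2 called it lower (adjusted p = 0.0409), as did edgeR without Control-STAM-INS replicate 2 (adjusted p = 0.0459). Gsto1 had 253, 315, 294 and 243 CPM against 301, 319 and 342 (log2 fold change 0.21 ± 0.10, adjusted p = 0.177 by edgeR). Gstz1, the zeta-class enzyme of tyrosine breakdown, had a log2 fold change of -0.26 (95% confidence interval -0.48 to -0.05, adjusted p = 0.135 by edgeR).

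**Figure D3:**
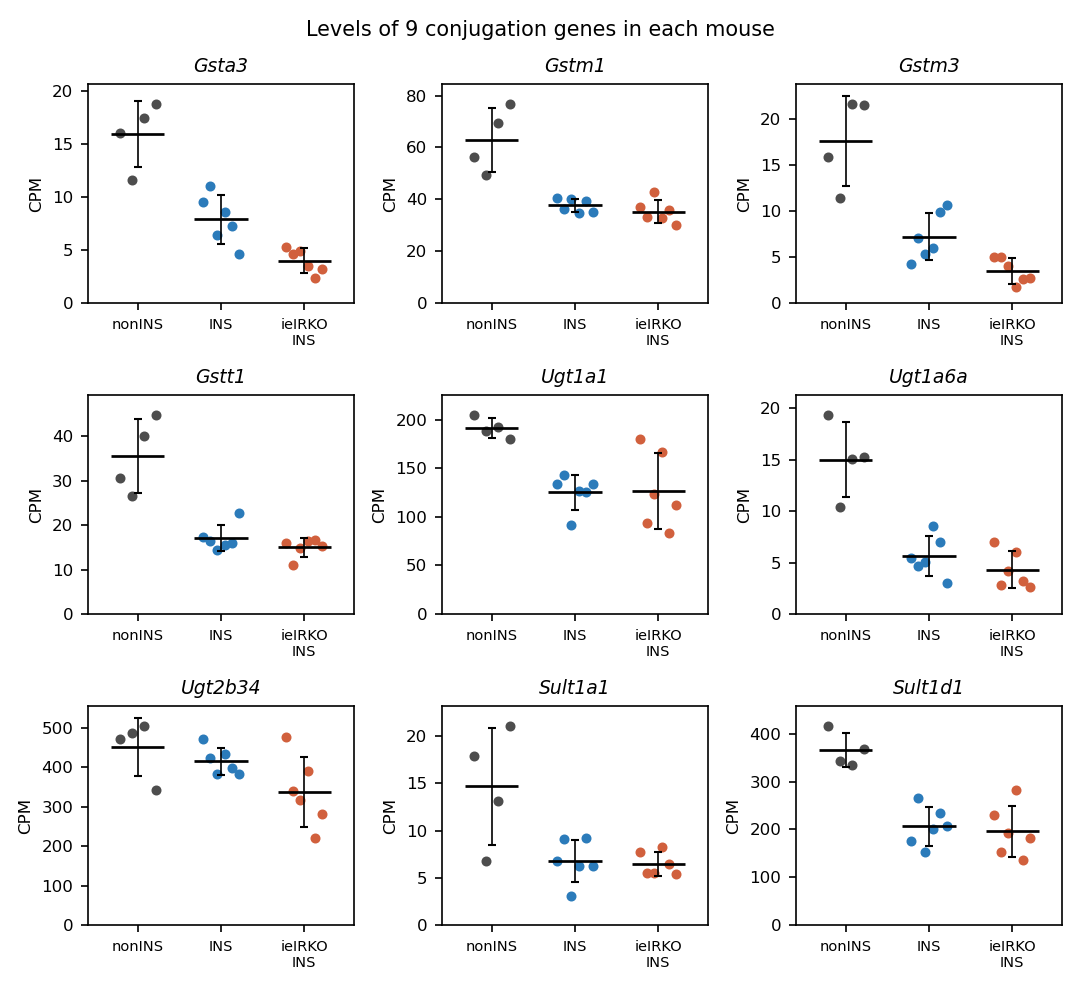
CPM of 9 conjugation genes in each mouse (points) with the group mean (bar) and SD (whisker); nonINS and INS are the control genotype, and each panel has its own scale. Gsta3, Gstm1, Gstm3, Gstt1, Ugt1a1, Ugt1a6a and Sult1d1 show no overlap between Control-STAM-nonINS and Control-STAM-INS, whereas Ugt2b34 and Sult1a1 do overlap.

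In the Ugt1a cluster, Ugt1a1, Ugt1a6a and Ugt1a7c fell with insulin. Ugt1a1, the enzyme that conjugates bilirubin, had 204, 188, 192 and 180 CPM without insulin and 91.0, 130 and 143 CPM (lowest, median, highest) with it, without overlap (log2 fold change -0.61 ± 0.18, adjusted p = 0.0378 by edgeR). This call was lost without any 1 of 9 of the 10 libraries, all but Control-STAM-INS replicate 2, with an adjusted p of up to 0.107 and log2 fold changes from -0.65 to -0.53. Ugt1a6a, whose product conjugates simple planar phenols, had 19.3, 10.4, 15.05 and 15.2 CPM against 3.03, 5.22 and 8.56. The groups did not overlap, and the log2 fold change of -1.42 ± 0.29 was the most negative of the 34 members (adjusted p = 0.00462 by edgeR). Ugt1a7c had 112, 84.6, 110 and 130 CPM against 61.6, 74.0 and 78.7, without overlap (log2 fold change -0.62 ± 0.11, adjusted p = 0.00208 by edgeR). Ugt1a6b was near the limit of detection, with 0 to 1.34 CPM against 0 to 1.73, and its interval of -1.501 to 2.84 left the direction undetermined.

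Because later exons are common to the cluster, 50.3% to 60.6% of the exonic bases of these 4 genes are shared with neighbours on the same strand. On the other strand Gm20528 overlaps 41.5% of the exonic bases of Ugt1a1 and 9.1% to 16.5% of those of the other 3, which matters if strand was not used in counting. Their counts were therefore also added. The sum was 316 ± 22.7 CPM (SD, n = 4) without insulin and 203 ± 24.1 (SD, n = 6) with it (log2 fold change -0.64 ± 0.14, adjusted p = 0.00786 by edgeR).

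The Ugt2b genes, which encode enzymes for steroids and bile acids, did not pass the test with insulin. Ugt2b34, the most abundant Ugt per length, had 471, 488, 504 and 342 CPM without insulin and 382, 411 and 471 CPM (lowest, median, highest) with it, a log2 fold change of -0.12 with a 95% confidence interval of -0.44 to 0.20. Ugt2b5, Ugt2b35 and Ugt2b36 had log2 fold changes of -0.09, -0.28 and -0.19. Their sum differed by -0.13 on the log2 scale (95% confidence interval -0.43 to 0.18, adjusted p = 0.663 by edgeR). Ugt2a3 had 0.268, 1.25, 0.224 and 0.262 CPM without insulin, from 4 to 16 counts, and 0.0599, 1.59 and 4.63 CPM with it. Its log2 fold change of 1.98 ± 0.76 was the most positive of the members and had an adjusted p of 0.106 in edgeR, while DESeq2 called it higher. Of the 11 libraries in which Ugt2a3 reached 10 counts, 1 was untreated, so it became a member through the insulin-treated groups and its direction is tied to the choice of members.

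Among the sulfotransferases, Sult1a1 and Sult1d1 fell with insulin. Sult1d1, an enzyme for catecholamines and other amines, had 416, 344, 335 and 370 CPM without insulin and 154, 204 and 265 CPM (lowest, median, highest) with it. The groups did not overlap (log2 fold change -0.83 ± 0.18, adjusted p = 0.00624 by edgeR). Sult1a1, the main phenol sulfotransferase, had 17.9, 6.82, 13.1 and 21.03 CPM against 3.11, 6.51 and 9.23 (log2 fold change -1.13 ± 0.28, adjusted p = 0.0169 by edgeR). Its untreated replicate 2, at 6.82 CPM, lay within the treated range, and the call was lost without Control-STAM-nonINS replicate 4 (adjusted p = 0.0683) or replicate 1.

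Sult1b1, the neighbour of Sult1d1, had 143 to 235 CPM without insulin and 191 to 229 with it, and a log2 fold change of 0.18 (95% confidence interval -0.06 to 0.43). Sult1c2 had 5.96, 4.78, 5.54 and 5.25 CPM against 6.498, 7.58 and 8.32, so that all treated mice lay above all untreated mice. Its log2 fold change was 0.48 ± 0.18, with an adjusted p of 0.0989 in edgeR. With only the groups compared, edgeR called it higher. Sult2b1, which sulfates cholesterol and other sterols, had 208, 220.01, 221 and 92.3 CPM against 154, 202 and 213 (log2 fold change 0.06, 95% confidence interval -0.33 to 0.44). Sult4a1, an orphan member known from the brain, had 4.16 to 6.12 CPM against 3.57 to 5.77.

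Added up by subfamily, the Gsta, Gstm, Gstp, Gstt and Ugt1a sums fell with insulin and the Sult1 and Ugt2b sums did not pass the test. Besides the sums given above, the log2 fold change was -0.88 ± 0.21 for Gsta (adjusted p = 0.0156), -0.61 ± 0.12 for Gstm (adjusted p = 0.00411) and -0.41 ± 0.08 for Gstt (adjusted p = 0.00289), each by edgeR. The Gsta sum was not called without Control-STAM-nonINS replicate 3 (adjusted p = 0.0603). The Sult1 sum had 577 ± 35.3 CPM (SD, n = 4) without insulin and 437 ± 50.1 (SD, n = 6) with it, a log2 fold change of -0.40 ± 0.13 and an adjusted p of 0.0515, and was called without Control-STAM-INS replicate 2.

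**Figure D4:**
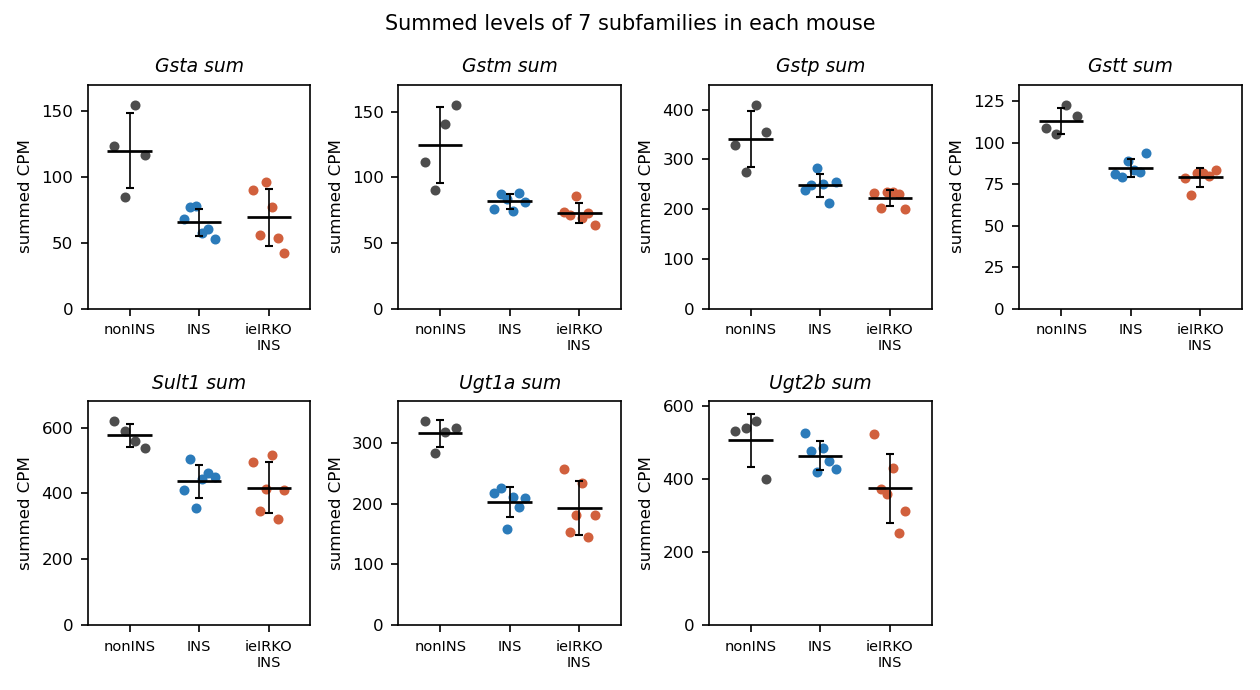
Summed CPM of the members of 7 subfamilies in each mouse (points), with the group mean (bar) and SD (whisker), from a zero baseline. The Gsta, Gstm, Gstt, Sult1 and Ugt1a sums of all Control-STAM-INS mice are below those of all Control-STAM-nonINS mice, and the Ugt2b sums overlap.

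The libraries labelled ieIRKO-STAM-INS were then compared with Control-STAM-INS, which asks whether the epithelial receptor allele alters these genes under insulin. No member passed the test in either direction (0 of 34 by edgeR), where 0.183% of all genes were lower and 0.0393% higher. An unadjusted p under 0.05 was reached by 8 members, all with lower values, and by 3.9% of all genes in that direction. DESeq2 called 2 members lower, Gsta3 and Gstm3, and 0.38% of all genes. In 28 of 34 members the log2 fold change was negative, with a median of -0.14 against 0.017 over all genes. The groups of no member were fully separate, as against 0.406% of all genes that were lower and 0.439% that were higher without overlap. For 30 of the 34 members the 95% confidence interval lay within 1 log2 unit of 0, and the exceptions were Gsta3, Gstm3, Ugt1a6b and Ugt2a3.

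Gsta3 and Gstm3 had the most negative values in this comparison. Gsta3 had 2.36, 4.08 and 5.31 CPM (lowest, median, highest) in the libraries labelled ieIRKO-STAM-INS, so that the ranges touched only between 4.59 and 5.31 CPM. The log2 fold change was -0.98 ± 0.22 with a 95% confidence interval of -1.41 to -0.55 and an adjusted p of 0.0869 in edgeR. It passed in edgeR without Control-STAM-INS replicate 6 (adjusted p = 0.0266) or without ieIRKO-STAM-INS replicate 1 (adjusted p = 0.0494), and over all alternatives, DESeq2 included, the adjusted p lay between 0.00363 and 0.245. Gstm3 had 1.69, 3.35 and 5.06 CPM, a log2 fold change of -1.04 ± 0.28 and an adjusted p of 0.243 in edgeR. Under the exact two-sided permutation test of a single gene, each gave p = 0.00866 over 924 arrangements, without adjustment for the 34 members. Gstp2 gave the same value in that exact permutation test and Ugt2b35 a lower one (p = 0.00433).

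The other members that fell with insulin overlapped between both insulin-treated groups. Gstm1 had 30.1, 34.6 and 42.7 CPM (log2 fold change -0.09, 95% confidence interval -0.30 to 0.11). Gstt1 had 11.0, 15.6 and 16.6 CPM (log2 fold change -0.19, 95% confidence interval -0.46 to 0.08). Ugt1a1 had 83.3, 118 and 180 CPM (log2 fold change 0.01, 95% confidence interval -0.31 to 0.33). Sult1d1 had 137, 187 and 283 CPM (log2 fold change -0.07, 95% confidence interval -0.38 to 0.24). Among the others, Gsta1 had 17.4, 25.8 and 45.0 CPM in the labelled libraries and Gsta4 had 21.6, 35.8 and 46.3, with the highest values of both above all Control-STAM-INS mice. Gstp1 had 170, 196 and 198 CPM (log2 fold change -0.14), and Gstp2 had 23.5, 30.0 and 34.2 CPM (log2 fold change -0.30, 95% confidence interval -0.53 to -0.07, adjusted p = 0.36 by edgeR). Gstm6 had 1.08, 1.26 and 2.79 CPM, and Gstt2 had 21.8, 25.4 and 30.6 CPM. Ugt1a6a had 2.59, 3.72 and 7.01 CPM and Ugt1a7c 53.2, 59.7 and 70.1 CPM, with log2 fold changes of -0.38 and -0.21 and overlapping groups. Sult1a1 had 5.41, 5.97 and 8.27 CPM, all within the range of Control-STAM-INS. Gsto1 had 253, 299 and 334 CPM, and Sult2b1 had 125, 156 and 189 CPM.

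The glucuronosyltransferases of family 2 are described together. The 4 Ugt2b members had log2 fold changes from -0.30 to -0.49, and their sum was 374 ± 94.5 CPM (SD, n = 6) against 464 ± 39.9 (SD, n = 6), with a log2 fold change of -0.31 ± 0.14 and an adjusted p of 0.418 in edgeR.

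The markers of absorptive enterocytes varied in the same libraries. The summed level of 10 enterocyte markers ranged from 24627 to 39234 CPM in Control-STAM-nonINS, from 24013 to 40130 CPM in Control-STAM-INS and from 9176 to 41885 CPM in the labelled libraries, and 0 of 10 passed the test in any comparison. Between the insulin-treated groups, 9 of the 10 had a negative log2 fold change, with a median of -0.39. The summed level differed by -0.46 on the log2 scale (exact permutation p = 0.152, adjusted p = 0.364 over 36 tests of marker sums). Of 5 ileal markers, 1 passed between Control-STAM-nonINS and the labelled libraries, and the log2 fold changes of the 5 ran from -0.75 to 0.27. That marker was Fabp6, the ileal bile acid binding protein, lower in the labelled libraries (log2 fold change -0.59, adjusted p = 0.0338 by edgeR). The lowest enterocyte sum was in replicate 5 of the last group, which was the lowest of its group for 9 of 34 members, Gsta3, Ugt1a1, Ugt2b34 and Sult1d1 among them, and the highest for 3, Gstt1, Gstt2 and Sult1c2. Replicates 2 and 6 were the lowest for 9 and 11 members. Without this library the Ugt2b sum had a log2 fold change of -0.22 (adjusted p = 0.669 by edgeR), and Gsta3 had -0.87 (adjusted p = 0.193). B and plasma cell markers summed to 1655 to 3115 CPM in the labelled libraries and 959 to 1541 in Control-STAM-INS, and Paneth cell markers other than defensins to 723 to 1341 and 2836 to 4696 CPM, with Lyz1, Ang4 and Itln1 lower (log2 fold changes -2.31, -1.64 and -1.36). The part of these markers in the members' values was not tested.

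Across both differences (ieIRKO-STAM-INS against Control-STAM-nonINS), 16 of 34 members were lower and 0 were higher, where 7.59% of all genes were lower and 5.74% higher. This comparison shares its control mice with the insulin comparison, so the counts are not independent. Gstk1 and Ugt2b35 were called here and not in the insulin comparison, and Gsta4 was called there and not here. In 14 members all labelled libraries lay below all Control-STAM-nonINS mice (4.76% of all genes), and in 1 they lay above (3.8% of all genes). The latter was Ugt2a3, which met the level for members through the insulin-treated groups. The log2 fold change was -2.33 ± 0.30 for Gstm3 (adjusted p = 0.000203) and -2.0015 ± 0.23 for Gsta3 (adjusted p = 6.82e-05), both by edgeR. The difference from Control-STAM-nonINS was thus 5.04-fold for Gstm3 and 4.00-fold for Gsta3.

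Markers of other cells also moved in this comparison. Between Control-STAM-nonINS and the labelled libraries, the Paneth sum differed by -1.57 and the acinar sum by -0.67 on the log2 scale. Each had an exact permutation p of 0.00476 and an adjusted p of 0.0343 over 36 tests of marker sums. The B and plasma cell sum differed by 0.98 (adjusted p = 0.0571 by the same permutation test), with Cd79a, Jchain and Mzb1 called higher by edgeR. The ileal sum differed by -0.53 (adjusted p = 0.122) and the enterocyte sum by -0.54 (adjusted p = 0.372 by permutation). Of 5 markers of the proximal small intestine, 2 were called lower and 1 higher by edgeR, with log2 fold changes of the 5 from -2.26 to 1.26. Their sum differed by -0.19 (adjusted p = 0.633 by permutation). The part of all these markers in the members' values was not tested.

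In the comparison with Control-STAM-nonINS, Gstm6 had a log2 fold change of -1.81 (adjusted p = 0.00119), Ugt1a6a -1.80 (adjusted p = 0.000978) and Gstt1 -1.24 (adjusted p = 9.53e-05), by edgeR. Gstk1 had 7.75, 10.3 and 15.4 CPM (lowest, median, highest) in the labelled libraries, below all 4 untreated mice (log2 fold change -0.83 ± 0.16, adjusted p = 0.00293 by edgeR). Ugt2b35 had 31.8, 19.7, 23.3 and 29.2 CPM in Control-STAM-nonINS and 14.0, 17.8 and 19.5 CPM in the labelled libraries (log2 fold change -0.60 ± 0.13, adjusted p = 0.00595 by edgeR). The calls of Gsta1 (adjusted p = 0.0355) and Ugt1a1 (adjusted p = 0.0357) were again lost by edgeR without single libraries. For Gsta1 these were Control-STAM-nonINS replicates 1 and 3 and ieIRKO-STAM-INS replicates 2, 4, 5 and 6, and for Ugt1a1 all 4 Control-STAM-nonINS replicates and ieIRKO-STAM-INS replicates 2, 3, 5 and 6. Every subfamily sum but Ugt2b (adjusted p = 0.0695) passed the test by edgeR. The Ugt2b sum passed without Control-STAM-nonINS replicate 4 (adjusted p = 0.0356) or ieIRKO-STAM-INS replicate 1 (adjusted p = 0.0133). The Sult1 sum did not pass without Control-STAM-nonINS replicate 1 (adjusted p = 0.0736) or with a replicate block (adjusted p = 0.0549), and Gsta did not without replicate 1 or 3 (adjusted p up to 0.0813).

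**Figure D5:**
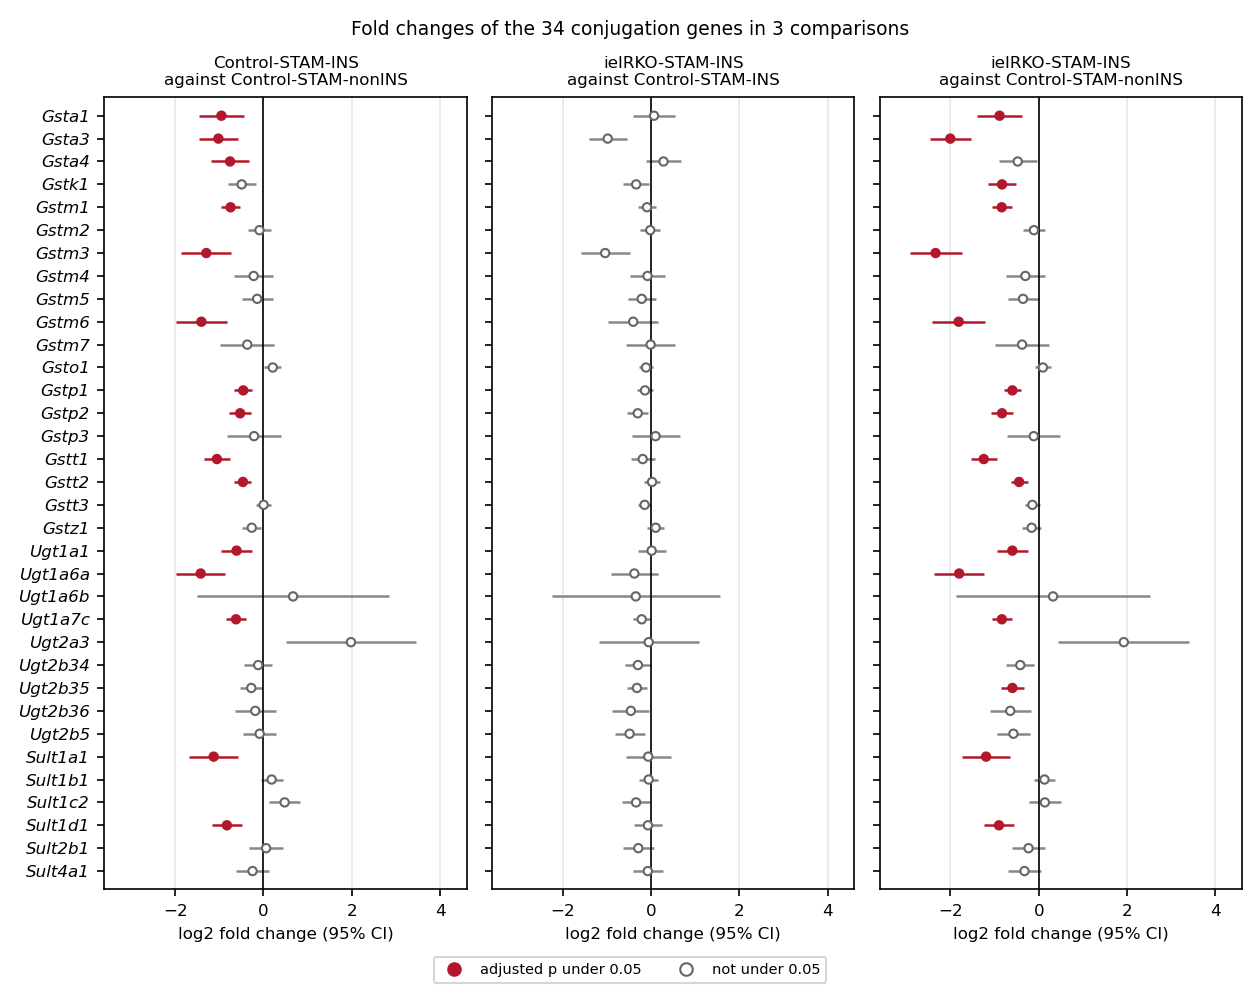
log2 fold change (point) and 95% confidence interval (line) of the 34 genes in the 3 comparisons, filled red where the adjusted p of edgeR is under 0.05. Filled points number 15 in the insulin comparison, 0 between the insulin-treated groups and 16 against Control-STAM-nonINS, all to the left of 0.

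Genes that supply or accompany the conjugation enzymes were counted from lists. Over all genes, 6.76% were lower and 3.73% higher with insulin. Of 9 genes of glutathione supply, 1 was lower with insulin and 0 were higher. It was Oplah, which recycles 5-oxoproline to glutamate in the glutathione cycle, with 23.8 ± 5.73 CPM (SD, n = 4) against 13.3 ± 1.47 (SD, n = 6) and a log2 fold change of -0.84 ± 0.14 (adjusted p = 0.00143 by edgeR). Of 5 genes of UDP-glucuronate supply and 6 of PAPS supply, 0 passed, and of 9 conjugate exporters 0 passed. Of 12 tested genes for other conjugations, Acsm3, an acyl-CoA synthetase of the medium-chain family, and Tpmt, which methylates thiopurines, were lower (log2 fold changes -1.16 and -0.59), and Hnmt, which methylates histamine, was higher (0.71, adjusted p = 0.049 by edgeR).

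Targets of the sensing factors were counted in the same way, beside the same shares of all genes (6.76% lower and 3.73% higher with insulin). Of 17 NRF2 targets, 1 was lower with insulin, Akr1b8, an aldo-keto reductase, with 16.9 ± 6.13 CPM (SD, n = 4) against 5.09 ± 1.301 (SD, n = 6) and a log2 fold change of -1.74 ± 0.22 (adjusted p = 0.000187 by edgeR). Nqo1, the usual reporter of NRF2, had a log2 fold change of -0.15 (adjusted p = 0.434). Of 4 tested genes of the AHR battery, 8 PXR and CAR targets and 13 regulators, 0 passed with insulin, and in all these lists 0 passed between the insulin-treated groups. Against Control-STAM-nonINS, the libraries labelled ieIRKO-STAM-INS had, among others, lower Oplah, Acsm3, Tpmt, Papss1, Akr1b8, G6pdx, Nqo1, Aldh1a1 and Nr1i3 and higher Gsr, and the log2 fold changes of these ran from -1.46 (Nr1i3) to 0.64 (Gsr). By list, the genes called lower there were 1 of 9 for glutathione supply, 1 of 6 for PAPS supply, 3 of 12 for other conjugations, 3 of 17 for NRF2, 1 of 4 for AHR, 1 of 8 for PXR and CAR, 1 of 13 for regulators, and 0 for UDP-glucuronate supply (5 genes) and export (9 genes). Over all genes the share was 7.59%, and Nqo1 counts in both the NRF2 and the AHR list. Nr1i3 encodes the receptor CAR, and Aldh1a1, a retinal dehydrogenase, had a log2 fold change of -1.22 (adjusted p = 0.0009 by edgeR).

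Markers of gut segments and other cells were set beside the insulin comparison. Ileal markers summed to 7939 to 11583 CPM without insulin and 6294 to 9536 with it, and 0 of 5 passed. Of 5 markers of the proximal small intestine, Fabp1 (log2 fold change -2.58) and Cybrd1 (-0.83) were lower and Slc40a1 (1.00) was higher, while their sum ranged from 91.4 to 183 CPM and from 96.8 to 143 CPM. Hepatocyte markers summed to 2.75 to 19.9 CPM in all groups. Pancreatic acinar markers summed to 5.65 to 9.49 CPM without insulin and 3.12 to 5.03 with it. That sum was the only 1 of 12 marker sums to pass in this comparison. Its log2 difference was -0.75 (exact permutation p = 0.00476, adjusted p = 0.0343 over 36 tests of marker sums). Cela1, the only 1 of 7 acinar markers tested by edgeR, was lower (log2 fold change -0.89, adjusted p = 0.0042), with Prss1, Cela2a, Cpa1 and Pnlip at 0 counts in both groups. Crypt, goblet, smooth muscle, adipocyte and colon markers had 0 calls in each of the 3 comparisons. Itln1 among the Paneth cell markers was higher with insulin (log2 fold change 1.39). The part of the proximal and acinar markers in the members' values was not tested.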

How the data were processed

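Total RNA of the ileal whole wall of 16 mice was sequenced with a directional library kit. The authors aligned the reads to GRCm38 in CLC Genomics Workbench and deposited, for each mouse, a table of raw counts per gene without normalization; the strand setting and the handling of reads that match several genes are not given in the sources used here. Samples were grouped by their labels, and nothing was left out. In edgeR 4.0.16 (R 4.3.3), 15267 genes passed filterByExpr (minimum count 10, minimum total 15). After TMM normalization a robust quasi-likelihood model was fitted to the 3 groups together, with Benjamini-Hochberg adjustment over all tested genes. Intervals are at 95%, from the normal distribution and the SE of that model. log2 CPM adds a prior count of 2. Subfamily sums replaced their members in a fit of their own, and exact permutation tests used log2 CPM. Levels per kb use exonic lengths of GENCODE vM21.

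The members and gene lists were chosen with earlier results of these data known. Members are described in full where they passed the test in any comparison or had the highest level per length in their subfamily, and list genes that passed are named in part, with a result that is not reported here. The script was tested on simulated data. Alternatives were DESeq2 1.42.0, upper-quartile normalization, other filters, only the groups compared and a replicate block. Others left out ieIRKO-STAM-INS replicates 2 and 3, or each library in turn. The plan labelled these 2 as B cell-rich, but by the marker sum used here they had 1655 and 2014 CPM, and replicate 5 had 3115. Figures used matplotlib 3.10.9.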

Additional observations from a re-analysis of the deposited data

Results flagged for a closer look

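In each group, the highest and lowest mouse of 30 measures (23 members described in full and 7 subfamily sums) was compared with its nearest neighbour by Dixon's ratio of gap to range on log2 CPM. Of 90 such groups 8 stood out, where chance gives about 4.5. In Control-STAM-nonINS (limit 0.829 for 4 mice), replicate 4 was far below the others for Sult2b1 (ratio 0.935) and for the Ugt2b sum (0.85), and replicate 2 was far above for Ugt2a3 (0.913). In Control-STAM-INS (limit 0.625 for 6 mice), replicate 3 was far below for Ugt1a1 (0.701) and Sult1a1 (0.639). In the libraries labelled ieIRKO-STAM-INS, replicate 2 was far below for Gstt1 (0.722) and the Gstt sum (0.707), which contains Gstt1, and replicate 1 was far above for Gstm6 (0.646).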

How the results depend on the processing

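With insulin, the alternatives called between 12 and 17 members, against 15 in the reported fit. Leaving out 1 library gave between 11 and 16. The 12 came without a filter, where 3.85% of all genes were lower. The 17 came under DESeq2, where 7.99% were lower, and with only the groups compared, where 7.19% were. Each 17 included 1 member called higher, Ugt2a3 and Sult1c2 in that order. Against Control-STAM-nonINS the labelled ieIRKO libraries gave 14 to 18 in both, against 16. Under DESeq2 the 18 included Ugt2a3, called higher, and 9.05% of all genes were lower. Between the insulin-treated groups DESeq2 called 2 members instead of 0, and leaving out 1 library gave 0 to 1. Replicate numbers do not pair the mice (correlations of deviations from -0.0943 to 0.179, over 0.1 in 4 of 14 pairs). With a replicate block, 13, 0 and 15 members were called. Gsta4 and Ugt1a1 then lost their insulin calls, and Ugt1a1 its call against Control-STAM-nonINS (adjusted p = 0.064 by edgeR). In the comparison of insulin-treated groups, Ugt1a1 turned to -0.0246 and Gsta1 to -0.00223 on the log2 scale. All changes of sign lay in that comparison and near 0. Without ieIRKO-STAM-INS replicates 2 and 3, Sult1d1 was 0.00618, Sult1a1 0.0341 and Gsta1 -0.0599. Leaving out 1 library gave -0.0381 to 0.188 for the Gsta sum, -0.0906 to 0.184 for Gsta1, -0.0313 to 0.0668 for Gstt2, -0.213 to 0.0408 for Sult1a1, -0.206 to 0.0134 for Sult1d1 and -0.116 to 0.106 for Ugt1a1. Without a filter, Gsta1, Gsta4 and Ugt1a1 lost their insulin calls and Gsta1 its call against Control-STAM-nonINS (adjusted p = 0.0657). There, Gsta1 (0.0991) and Ugt1a1 (0.091) also lost theirs with only the groups compared, and Sult1a1 and Ugt1a1 without ieIRKO-STAM-INS replicates 2 and 3. With insulin, Gstk1 was gained with only the groups compared (0.0237) and the Sult1 sum under DESeq2 (0.0346). The causes were not tested. Depth limits Ugt2a3 (1 to 60 counts per library) and Ugt1a6b (0 to 26) most.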
